A study of Mus musculus with 12 samples.

Results

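The regions described here were less accessible in Treg without Ikaros both before and after stimulation. They were chosen from the measured values: a region entered if its highest group mean reached 8 CPM (the region's reads per 1000000 counted reads of the library), if its WT mean was at least 1.5 times its Ikzf1-cko mean in each state, and if in each state the highest Ikzf1-cko library lay below the lowest WT library. Of 118680 accessible regions, 1135 met the rule. The genotype difference of these regions is therefore a description of how they were chosen and not a finding.

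Accessibility was measured by ATAC-seq, in which a transposase inserts adapters where chromatin is open, in Treg sorted from spleen as YFP+ cells, with 100000 cells in each library. WT Treg came from Foxp3-YFP-Cre mice and Ikzf1-cko Treg from Ikzf1-fl-Foxp3-YFP-Cre mice, so that both genotypes carried the Cre and its YFP reporter, driven from Foxp3, and the deletion followed Foxp3 expression. Cells of each genotype were taken unstimulated or received anti-CD3 bound to the plate together with anti-CD28 for 4 h (stimulated). There were 3 libraries in each of the 4 groups. The paper's methods state that the sorted cells were divided between these states, without saying which libraries share a source. The age of the mice for these libraries is not given in the sources used here, nor is it stated whether the 3 libraries of a group came from separate mice, so the p-values below measure the spread between libraries.

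Ikaros, the product of Ikzf1, is a zinc finger protein of lymphocytes that binds DNA at sites with a GGGAA core and recruits the NuRD remodelling complex, and it can keep chromatin closed or open depending on the site. Treg are the CD4+ T cells that require Foxp3 to restrain immune responses. An accessible region away from a start site is often an enhancer, where T cell factors such as RUNX, ETS, TCF/LEF and AP-1 proteins bind.

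The sequences of 8 of these regions are shown because they lie near genes with known roles in T cells (Lef1, Satb1, Stat3, Ifngr2, Tgfbr3 and Tle4) or fell the most (OCR_11083 and OCR_16556), and they were chosen among such regions with their motif words in view. Each is the 300 bases around the region's centre, in mm9 and on the plus strand, read 5′ to 3′, and none overlaps an exon. Capitals mark the Ikaros core GGGAA or, on the other strand, TTCCC.
OCR_11083 (Atg5), chr10:43958398-43958697: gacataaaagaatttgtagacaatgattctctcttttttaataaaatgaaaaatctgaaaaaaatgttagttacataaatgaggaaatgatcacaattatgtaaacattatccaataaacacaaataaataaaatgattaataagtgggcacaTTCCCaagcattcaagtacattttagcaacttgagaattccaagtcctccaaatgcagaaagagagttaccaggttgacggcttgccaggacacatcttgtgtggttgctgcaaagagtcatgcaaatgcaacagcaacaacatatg
OCR_16556, chr11:14042624-14042923: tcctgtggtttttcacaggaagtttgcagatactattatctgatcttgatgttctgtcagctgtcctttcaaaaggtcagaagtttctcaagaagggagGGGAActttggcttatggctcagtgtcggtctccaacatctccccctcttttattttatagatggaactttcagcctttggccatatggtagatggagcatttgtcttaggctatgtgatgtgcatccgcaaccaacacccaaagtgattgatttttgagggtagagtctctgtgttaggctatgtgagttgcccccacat
OCR_74805 (Lef1), chr3:130729231-130729530: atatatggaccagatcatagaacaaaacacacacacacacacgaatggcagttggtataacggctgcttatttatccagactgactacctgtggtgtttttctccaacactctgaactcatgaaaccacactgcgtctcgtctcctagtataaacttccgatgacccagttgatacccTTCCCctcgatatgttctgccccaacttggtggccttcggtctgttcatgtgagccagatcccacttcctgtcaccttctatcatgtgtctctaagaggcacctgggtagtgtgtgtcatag
OCR_51093 (Satb1), chr17:51994374-51994673: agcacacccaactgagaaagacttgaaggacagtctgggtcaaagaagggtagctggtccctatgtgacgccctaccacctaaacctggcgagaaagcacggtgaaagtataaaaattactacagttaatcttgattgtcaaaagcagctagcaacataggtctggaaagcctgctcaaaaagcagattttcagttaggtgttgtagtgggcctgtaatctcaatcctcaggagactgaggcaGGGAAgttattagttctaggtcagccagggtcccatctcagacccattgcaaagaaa
OCR_20469 (Stat3), chr11:100813556-100813855: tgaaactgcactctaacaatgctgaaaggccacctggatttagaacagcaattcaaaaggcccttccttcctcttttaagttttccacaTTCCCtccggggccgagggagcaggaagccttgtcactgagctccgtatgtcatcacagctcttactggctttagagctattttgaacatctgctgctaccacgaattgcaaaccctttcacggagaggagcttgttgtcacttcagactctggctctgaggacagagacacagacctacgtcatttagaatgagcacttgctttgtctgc
OCR_47741 (Ifngr2), chr16:91522721-91523020: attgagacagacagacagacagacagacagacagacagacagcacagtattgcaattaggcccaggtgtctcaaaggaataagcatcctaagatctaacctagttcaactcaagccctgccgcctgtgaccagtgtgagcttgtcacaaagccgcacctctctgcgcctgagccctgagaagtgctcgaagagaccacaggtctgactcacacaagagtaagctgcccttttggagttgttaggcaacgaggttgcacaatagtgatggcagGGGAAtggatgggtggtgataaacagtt
OCR_88186 (Tgfbr3), chr5:107630788-107631087: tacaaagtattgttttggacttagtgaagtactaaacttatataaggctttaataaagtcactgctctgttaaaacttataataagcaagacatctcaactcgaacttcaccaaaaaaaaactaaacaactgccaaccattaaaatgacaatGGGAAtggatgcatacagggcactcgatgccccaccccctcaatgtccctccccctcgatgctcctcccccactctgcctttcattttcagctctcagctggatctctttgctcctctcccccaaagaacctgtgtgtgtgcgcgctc
OCR_58177 (Tle4), chr19:14769970-14770269: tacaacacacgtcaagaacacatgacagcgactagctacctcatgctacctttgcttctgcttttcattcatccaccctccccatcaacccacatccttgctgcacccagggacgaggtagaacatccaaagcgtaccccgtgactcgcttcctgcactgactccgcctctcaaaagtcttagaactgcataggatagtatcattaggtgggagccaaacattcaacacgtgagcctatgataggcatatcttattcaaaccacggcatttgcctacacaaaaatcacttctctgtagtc

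The 7 windows from OCR_11083 to OCR_88186 held 1 core each and the Tle4 window held none. The Lef1 window also held 2 copies of the RUNX word TGTGGT, and the Ifngr2 window held 1 AP-1 word (TGANTCA) and 1 TCF/LEF word (CTTTGA). Because of that choice the share over all 1135 regions, given further on, is the value to read.

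Depth differed with genotype. The counted reads per library were 4808916 to 8596567 in WT and 9221901 to 15355521 in Ikzf1-cko, and within each state every Ikzf1-cko library was the deeper. Start site regions took 43.0% to 48.9% of the reads of a WT library and 50.9% to 53.0% of an Ikzf1-cko library, so that the other regions shared a smaller part of the reads in Ikzf1-cko. The start sites of all 8 Treg markers examined, Foxp3, Il2ra, Ctla4, Ikzf2, Ikzf4, Tnfrsf18, Cd4 and Cd3e, were covered by regions and summed to 161 to 169 CPM in unstimulated WT against 180 to 194 in Ikzf1-cko, and to 149.5 to 189.1 against 187.1 to 202.9 CPM after stimulation, while Ms4a1, Cd79a, Pax5, Spi1, Lyz2, Csf1r, Itgam, Ncr1 and Hbb-b1 had none. Start sites of the CD8 and NK list (Cd8a, Cd8b1 and Klrb1c with a region) summed to 21.4 to 26.5 CPM in unstimulated WT and 15.6 to 17.2 CPM in unstimulated Ikzf1-cko, and to 21.7 to 23.98 and 17.4 to 18.01 CPM after stimulation. Those of the B cell list (Cd79b and Ebf1) summed to 12.7 to 15.01 against 10.2 to 11.3 CPM unstimulated and 16.3 to 20.2 against 12.1 to 13.9 CPM stimulated, whereas those of the myeloid list (Cd14 and Cebpa) were higher in Ikzf1-cko, at 44.9 to 52.5 CPM against 35.4 to 39.0 CPM in WT, and those of the erythroid list (Gata1, Klf1 and Epor) lay between 30.1 and 41.7 CPM in all 12 libraries. No marker region was among the 1135. The part of depth, read distribution and cell makeup in what follows was not tested, and in sorted bulk cells fewer cells with an open region and less opening per cell cannot be told apart.

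At Ikzf1 itself (chr11:11585006-11672929) 28 regions were tested and none was among the 1135. Their summed accessibility was 309 ± 20.2 CPM (SD, n = 3) in unstimulated WT, 303 ± 24.7 in unstimulated Ikzf1-cko, 212 ± 27.6 in stimulated WT and 266 ± 18.96 in stimulated Ikzf1-cko. Accessibility over the gene does not check the deletion, since the region that holds the deleted exons is not given in the sources used here. Within 5 Mb of Ikzf1, 9 of 179 tested regions were members (5.03%, against 1.62% of all 69957 tested regions), including the start sites of Upp1, Grb10, Cobl and Egfr.

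Together the 1135 regions held 1.38% to 1.75% of the reads of an unstimulated WT library and 0.824% to 0.901% of an unstimulated Ikzf1-cko library. After stimulation the share was 2.23% to 2.37% in WT and 1.10% to 1.37% in Ikzf1-cko. Most were of moderate strength: the median region had a mean of 8.57 CPM in unstimulated WT, 4.56 CPM in unstimulated Ikzf1-cko, 10.1 CPM in stimulated WT and 5.01 CPM in stimulated Ikzf1-cko. When the tested regions were split into 5 equal groups by mean CPM, 515 members fell in the middle group, 417 in the next higher and 102 in the highest. The median WT to Ikzf1-cko ratio was 1.87 unstimulated and 1.98 stimulated, and 408 and 552 regions reached 2 in the respective states. On the scale of the edgeR fit the members' median log2 ratio of Ikzf1-cko to WT was −0.90 unstimulated and −0.99 stimulated, where the median of all tested regions was −0.13 and −0.11. Relative to all regions these were −0.76 and −0.88 with library totals and −0.76 and −0.89 with TMM factors. A scaling factor shifts all regions of a library alike, so this difference could hardly change and is no check of the scaling. TMM moved the median of all regions by 0.12 unstimulated, and DESeq2 size factors moved it by 0.10 stimulated.

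**Figure D1:**
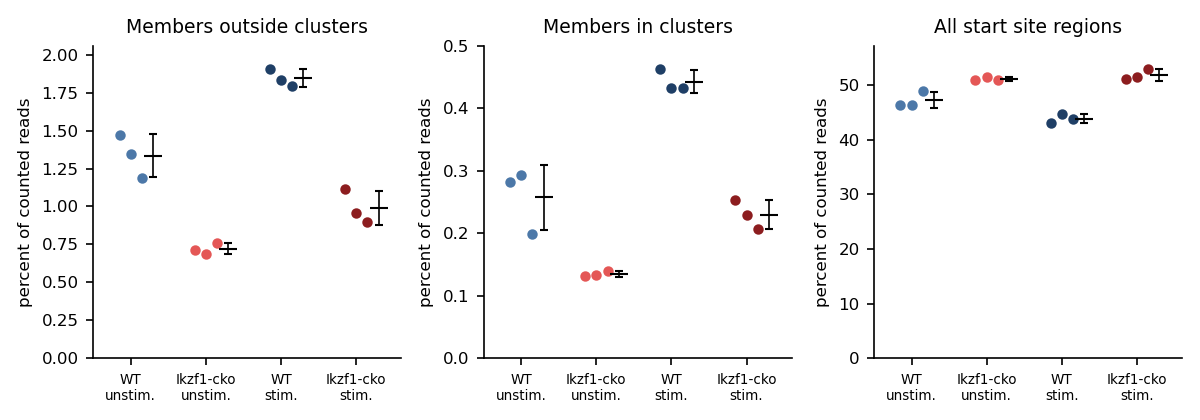
Percent of each library's counted reads in the 1002 regions outside clusters, in the 133 regions of clusters and in all start site regions, by group (points, libraries; bars, mean ± SD, n = 3; axes start at 0). The members' share is lower in Ikzf1-cko in both states, which the rule fixes, while the share at start sites is higher, at 50.9% to 53.0% against 43.0% to 48.9%.

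The genotype fit used the same contrast as the rule and is given once as description. Of the members, 403 passed the call (a false discovery rate, FDR, below 0.05 with a change of more than 1 on the log2 scale) as lower in unstimulated Ikzf1-cko, where 4.04% of all tested regions did, and 557 passed it after stimulation, where 20.2% of all tested regions did. By FDR alone 1097 and 1135 members passed, against 12.7% and 30.7% of tested regions. Every WT library lay above every Ikzf1-cko library in both states in 10.9% of tested regions. Just inside the threshold of 8 CPM were OCR_113747 at the Coro2b start site (8.001 CPM), OCR_22531 near Gm9257 (8.003) and OCR_21251 near Slc16a5 (8.005), and just outside were OCR_89355 near Pitpnm2 (7.9999), OCR_4336 near Dsel (7.996) and OCR_83922 near Ski (7.99). The smallest unstimulated ratios inside were 1.5005 (OCR_16665, near Meis1, and OCR_100884, at Peg12) and 1.5008 (OCR_85211, in Bre), against 1.4996 (OCR_30142, near Fbp1, and OCR_3295, near B3gnt7) and 1.499 (OCR_84340, near Gm10481) outside. After stimulation the smallest inside were 1.501 (OCR_63455, near Mettl8, and OCR_34137, in Myst4) and 1.502 (OCR_96080, at Tmem40), against 1.4997 (OCR_95934, near Irak2), 1.4996 (OCR_51003, near Plcl2) and 1.499 (OCR_77674, near Epha7) outside.

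**Figure D2:**
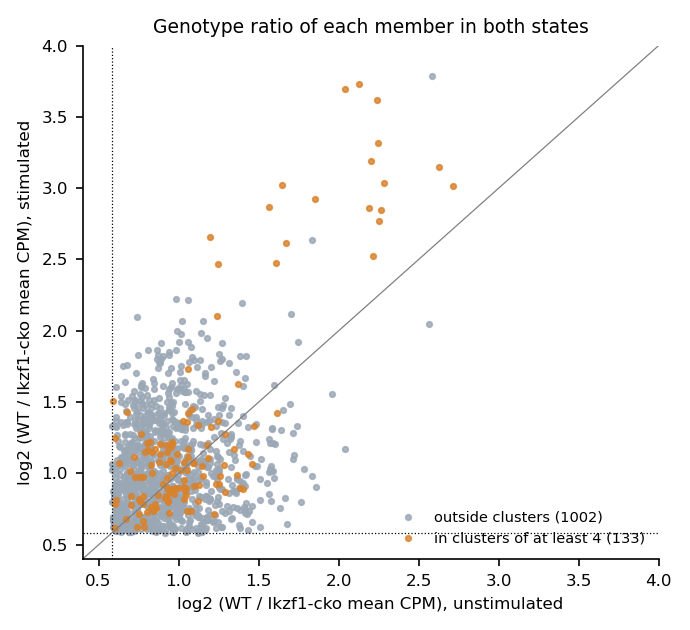
Log2 ratio of the WT to the Ikzf1-cko mean CPM for each of the 1135 regions, unstimulated (x) and stimulated (y), with dotted lines at the rule's ratio of 1.5 and a grey line of equal ratios; OCR_16556, with no read in stimulated Ikzf1-cko, lies beyond the axes. The ratio was the larger after stimulation in 682 regions (60.1%), against 49.7% of all tested regions. The rule used both ratios, and 479 members reached 8 CPM only in stimulated WT against 147 only in unstimulated WT. The count is therefore a description. Most of the points furthest up belong to clusters.

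Where the regions lie was not part of the rule. Among the 1135, 513 (45.2%) were intergenic, 315 (27.8%) in introns of coding genes, 105 (9.25%) over coding gene exons and 202 (17.8%) within 1 kb of a coding start site. Among all tested regions the shares were 39.6%, 30.9%, 6.80% and 22.7%, and among the other regions of at least 8 CPM start sites made up 39.9%. The median distance to the nearest start site was 29.2 kb, against 16.4 kb for tested regions, and 292 members (25.7%) were more than 100 kb away, against 17.0%. Their median GC content of 49.8% was close to the 50.5% of tested regions, and their median length was 857 bases against 607, although other regions of at least 8 CPM were longer still (943 bases).

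The members nearest to genes held in lists of Treg and T cell biology were few. Of 2068 tested regions nearest to a gene of the 10 lists examined, 24 were members (1.16%), below the 1.62% of all tested regions. The list of TGF-beta and activin signaling held 6 of 208 (2.88%, near Smad7, Tgfbr2 and Tgfbr3), cytokine receptors and STATs 4 of 161 (2.48%, near Ifngr2 and Il12rb2) and Notch and Wnt 2 of 137 (1.46%, near Axin2 and Tle4). The list of naive and central Treg factors held 5 of 379 (1.32%, near Bach2, Ccr7, Foxp1, Lef1 and Satb1), and Ikaros family and partners 4 of 309 (1.29%, near Ets1 and Runx1, all more than 100 kb away). Follicular and effector factors held 1 of 158 (near Stat3), T cell receptor signaling 1 of 187 (near Cd6) and stimulation-response factors 1 of 248 (near Nr4a1). Core Treg genes held 0 of 236 and homing receptors and factors 0 of 105.

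Near genes of naive and central Treg, the region 83.7 kb upstream of Lef1 (OCR_74805), which encodes a TCF/LEF factor of resting T cells, measured 9.62, 8.48 and 11.4 CPM in the unstimulated WT libraries and 4.17, 4.00 and 4.70 in the unstimulated Ikzf1-cko ones. After stimulation it measured 6.95, 6.94 and 7.07 CPM in WT and 4.45, 3.26 and 4.19 in Ikzf1-cko. The gap between genotypes was the wider before stimulation, at a ratio of 2.29 against 1.76, and the genotypes did not overlap in either state. A region 21.5 kb upstream of Satb1 (OCR_51093), the chromatin organizer needed for Treg development, measured 12.3 ± 0.888 CPM (SD, n = 3) against 6.61 ± 0.880 unstimulated and 8.80 ± 1.61 against 5.69 ± 0.367 stimulated. Over an exon of Ccr7 (OCR_20342), the receptor that brings T cells into lymph nodes, the values were 8.24 ± 0.361 against 5.26 ± 0.204 CPM and 5.92 ± 1.34 against 3.74 ± 0.521 CPM. A region within an intron of Bach2 (OCR_77785), a repressor that keeps T cells from effector fates, measured 8.78 ± 1.07 against 5.20 ± 0.158 CPM and 5.22 ± 0.726 against 3.34 ± 0.314 CPM. The member nearest to Foxp1, a forkhead factor of quiescent T cells, lay 168 kb away over an exon of Eif4e3 (OCR_95335) and measured 11.5 ± 0.545 against 6.95 ± 0.495 CPM unstimulated and 8.43 ± 0.823 against 5.57 ± 0.619 CPM stimulated. All 5 regions of this list had their highest mean in unstimulated WT and their lowest in stimulated Ikzf1-cko. The Lef1, Ccr7 and Bach2 regions stayed below 8 CPM in stimulated WT, so the rule fixed their highest mean in unstimulated WT. The Satb1 and Foxp1 regions reached 8 CPM in both WT groups.

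Near cytokine receptors and STATs, 2 regions upstream of Ifngr2, a chain of the interferon gamma receptor, were among the members. The one 24.2 kb away (OCR_47741) measured 11.9, 14.3 and 15.2 CPM in unstimulated WT, 5.34, 6.10 and 4.96 in unstimulated Ikzf1-cko, 6.45, 8.40 and 5.41 in stimulated WT and 3.90, 3.46 and 4.54 in stimulated Ikzf1-cko. The one 8.04 kb away (OCR_47744) measured 10.6, 10.5 and 12.1 CPM in unstimulated WT and 3.65, 3.56 and 3.16 in unstimulated Ikzf1-cko. After stimulation OCR_47744 measured 4.13, 5.12 and 3.54 CPM in WT and 2.71, 2.75 and 2.70 in Ikzf1-cko, so that its WT libraries came down close to the Ikzf1-cko ones without reaching them. At Il12rb2, the signalling chain of the interleukin 12 receptor, the start site region (OCR_93802) had 14.6 ± 0.717 CPM in unstimulated WT and 8.80 ± 0.952 in unstimulated Ikzf1-cko, with 13.2 ± 1.59 and 7.46 ± 1.66 after stimulation. Its stimulated and unstimulated libraries overlapped within each genotype (adjusted p = 0.46 in WT and 0.24 in Ikzf1-cko, edgeR). A region 12.2 kb upstream of the Stat3 start site (OCR_20469), which encodes a signal transducer of interleukins 6, 10 and others, measured 14.2 ± 0.855 against 5.51 ± 0.351 CPM unstimulated and 8.95 ± 1.35 against 5.29 ± 0.661 CPM stimulated.

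Among TGF-beta genes, the strongest member lay 87.1 kb upstream of Smad7, the inhibitory Smad, within an intron of Dym (OCR_56583). It measured 27.5, 23.8 and 30.5 CPM in unstimulated WT, 16.8, 16.6 and 12.5 in unstimulated Ikzf1-cko, 13.1, 15.7 and 12.3 in stimulated WT and 9.22, 7.84 and 8.81 in stimulated Ikzf1-cko. The others were 2 near Smad7 (OCR_56605 and OCR_56574), 2 in Tgfbr3 (OCR_88186 and OCR_88183) and 1 over an exon of Tgfbr2 (OCR_116098). They were, likewise, highest in unstimulated WT. Where such a region reached 8 CPM in that group alone, the rule fixes this order. Of the Notch and Wnt list, the region 97.3 kb upstream of Tle4 (OCR_58177), a Groucho corepressor, measured 31.0, 31.0 and 32.6 CPM in unstimulated WT and 21.0, 15.8 and 15.7 in unstimulated Ikzf1-cko. Stimulation took it to 12.7, 11.1 and 9.15 CPM in WT and to 6.398, 7.23 and 6.63 in Ikzf1-cko. The region 88.4 kb from Axin2 (OCR_20948), a Wnt pathway scaffold, moved the other way, from 95.4 ± 33.8 to 224 ± 22.1 CPM in WT and from 49.3 ± 2.34 to 126 ± 22.6 in Ikzf1-cko. Within Nr4a1, an immediate target of T cell receptor signals, an exonic region (OCR_43330) measured 3.40 ± 0.742 CPM in unstimulated WT, 1.54 ± 0.247 in unstimulated Ikzf1-cko, 8.20 ± 1.13 in stimulated WT and 4.22 ± 0.317 in stimulated Ikzf1-cko.

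**Figure D3:**
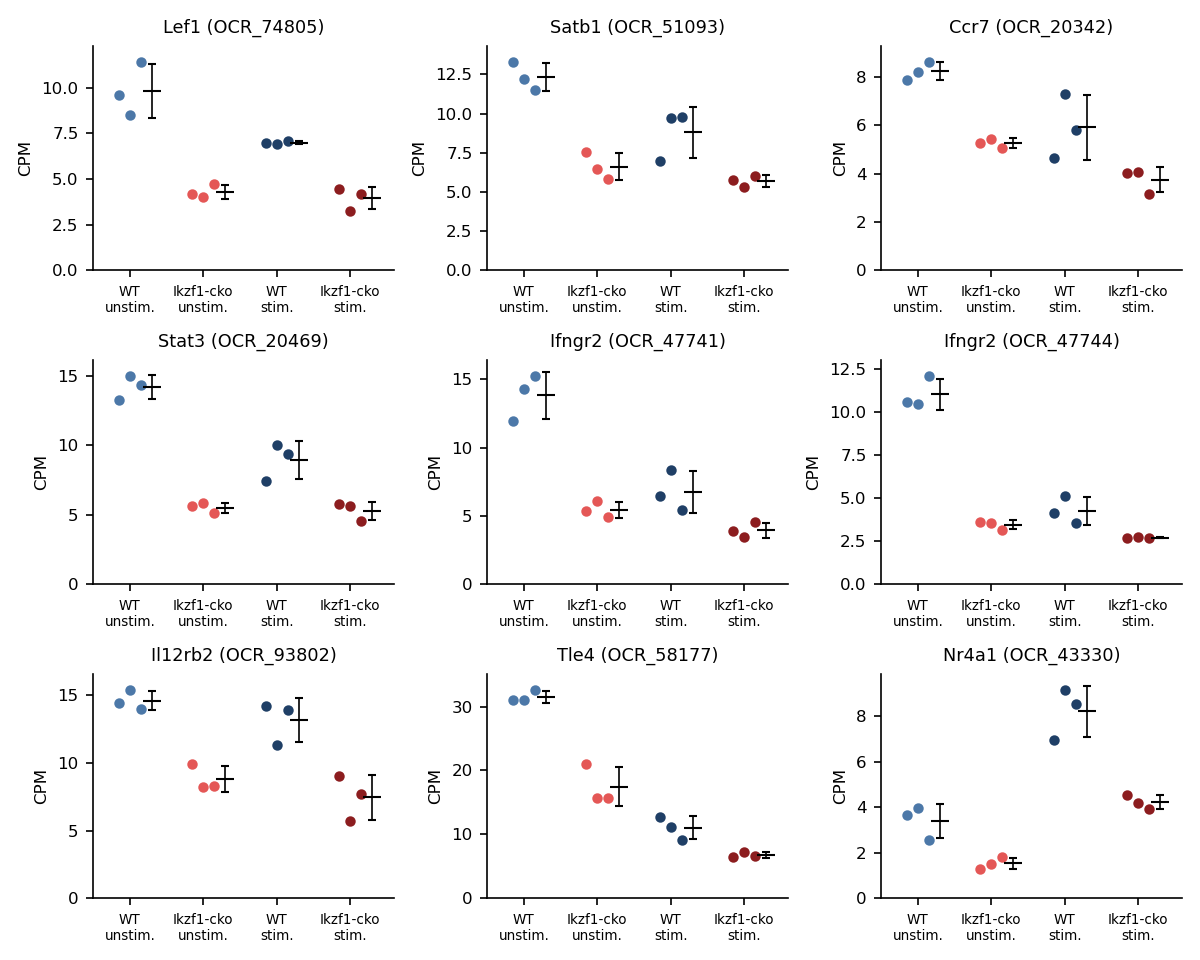
CPM of 9 regions in each library (points), with the mean and SD of each group (n = 3), each panel titled by the nearest gene and starting at 0. In every panel the 3 Ikzf1-cko libraries lie below the 3 WT libraries of the same state, which the rule fixes. The regions of Lef1, Satb1, Ccr7, Stat3, Ifngr2 and Tle4 are lower after stimulation in WT, whereas that of Nr4a1 is higher. The Lef1, Ccr7 and Ifngr2 regions reached 8 CPM only in unstimulated WT and the Nr4a1 region only in stimulated WT. Their directions therefore follow from the rule.

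A region 205 kb from Ets1 (OCR_112458), the ETS factor of lymphocytes, was 1 of the 5 members with an unstimulated ratio of at least 5. It measured 9.81, 8.48 and 8.38 CPM in unstimulated WT against 1.11, 2.03 and 1.37 in Ikzf1-cko, and 7.11, 9.50 and 6.65 CPM against 2.60, 1.02 and 2.01 after stimulation, a ratio of 5.91 and 4.14. It was named after its values were seen. Runx1, the T cell RUNX factor, had 3 members 128 kb to 283 kb upstream (OCR_47868, OCR_47873 and OCR_47878), with ratios between 1.54 and 1.81 in both states.

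By the mean of both genotype log2 changes, the regions that fell the most were OCR_16556 and OCR_11083, followed by 3 regions of the chromosome 5 clusters described below (OCR_84411, OCR_84434 and OCR_84413). OCR_11083, 29.3 kb upstream of Atg5 (an autophagy gene), measured 5.002, 6.36 and 3.14 CPM in unstimulated WT and 0.326, 0.727 and 1.37 in Ikzf1-cko, then 15.9, 15.9 and 10.2 CPM in stimulated WT and 1.30, 1.22 and 0.523 in Ikzf1-cko. OCR_16556 (chr11:14042402-14043145), within the transcript model 4930554G24Rik and more than 1 Mb from a coding start site, was all but unread in Ikzf1-cko. It had 81, 120 and 152 reads in the unstimulated WT libraries and 1 read in the 3 unstimulated Ikzf1-cko libraries together, a ratio of pooled reads of 675 (95% exact interval for counting error 120.4 to 26738). After stimulation it had 63 to 86 reads in WT and 0 in every Ikzf1-cko library, at least 45.6-fold lower at a floor of 3 reads per library. It lies on the chromosome of Ikzf1 and within 5 Mb of the gene, where 5.03% of tested regions were members, against 1.62% of all tested regions. Its 24-base words occur a median of 3 times in the mm9 genome. The cause of its near absence was not tested.

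Members at start sites were led by Gm10800 and Gm10801 on chromosome 2, whose words are also repeated, and by Macrod2. The Macrod2 region (OCR_66771) measured 112 ± 4.08 CPM in unstimulated WT, 73.4 ± 3.99 in unstimulated Ikzf1-cko, 79.6 ± 7.42 in stimulated WT and 50.7 ± 2.36 in stimulated Ikzf1-cko. The start site of Bend5 (OCR_81075) had 50.8 ± 7.22 against 31.0 ± 7.34 CPM unstimulated and 43.6 ± 7.39 against 22.9 ± 0.429 CPM stimulated, and the region 0.565 kb upstream of the Sfi1 start (OCR_15983) 38.2 ± 11.3 against 18.6 ± 0.471 and 68.2 ± 6.01 against 38.6 ± 2.94 CPM. Start site members without repeated words in mm9 also included Chl1 (50.9 against 28.3 CPM unstimulated), Dach2 (41.7 against 23.8) and Ube2e2 (38.1 against 24.3). Atrnl1 (32.7 against 20.7), Pde4d (29.1 against 18.02) and Cnr1 (28.8 against 17.3) were among them as well. Chl1, a cell adhesion molecule, and Cnr1, a cannabinoid receptor, are best known from neurons. Non-member start sites of the nearest genes of distal members outside clusters (477 regions) had a median log2 ratio of Ikzf1-cko to WT of −0.04 unstimulated and −0.01 stimulated, against 0.08 and 0.16 for 15220 other start site regions. Non-members within 10 kb of a member outside clusters (1048 regions) had medians of −0.49 and −0.56, against −0.12 and −0.09 for all tested non-members. The median region beside a member was thus also lower in Ikzf1-cko, by less than the members. These neighbours can include regions that narrowly missed the rule, and the comparison was not matched for level or position. The ratio varied with level. Tested regions in the lowest group of mean CPM had medians of −0.61 unstimulated and −1.41 stimulated, and those in the highest 0.12 and 0.32. Whether nearness to a member itself goes with a lower ratio was not tested.

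The strongest members were not near genes known for a role in T cells. A pair of adjoining regions on chromosome 17 (OCR_50459, chr17:39980016-39983685, and OCR_50460, chr17:39984447-39985781) led by far. They lie 362 kb and 360 kb from the nearest coding start site (Pgk2), and the transcript model AY036118 overlaps the latter. Their 24-base words occur a median of 1 time in mm9, but copies outside the assembly would not be counted, so the level may not be that of 1 locus. OCR_50459 measured 2008, 1758 and 1206 CPM in unstimulated WT, 1107, 1073 and 941 in unstimulated Ikzf1-cko, 4171, 4552 and 3722 in stimulated WT and 2969, 2406 and 2266 in stimulated Ikzf1-cko. Next came OCR_64687 and OCR_64685 at Gm10800 and Gm10801, and OCR_15979 in Sfi1, with 180 ± 37.2 CPM in unstimulated WT against 107 ± 2.71 in Ikzf1-cko and 296 ± 6.70 against 181 ± 12.6 CPM after stimulation.

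The members were not spread evenly. Joined where they lay within 50 kb of each other they formed 903 loci, of which 786 held a single member. Another 16 loci, called clusters here, held 4 or more members and 133 in all (11.7%). The largest cluster, of 23 members, was at chr1:90108255-90207304, around Ugt1a1, Heatr7b1, Hjurp and Trpm8, and 23 of the 41 tested regions in its span were members. The 41 regions summed to 816 ± 74.5 CPM in unstimulated WT and 636 ± 33.9 in Ikzf1-cko, and to 1286 ± 75.3 and 927 ± 64.02 CPM after stimulation, and the WT mean was the higher in 40 and 39 of them. In the 500 kb on either side only 1 of 52 tested regions was a member, and the median log2 ratio of WT to Ikzf1-cko there was 0.14 unstimulated and −0.08 stimulated, against 0.86 and 0.89 inside.

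The second cluster, at chr11:3031966-3099996, held 21 members around Sfi1, a centrosome gene, and Eif4enif1, among 43 tested regions. All 43 had the higher mean in WT in both states, summing to 5733 ± 733 CPM in unstimulated WT, 3861 ± 264 in unstimulated Ikzf1-cko, 7400 ± 348 in stimulated WT and 5156 ± 245 in stimulated Ikzf1-cko. The flanks held no member among 33 tested regions. The third, at chr5:14947888-15044197 around Speer4e, Gm10354 and Gm17019, held 15 members with the largest unstimulated ratio of summed CPM among the 16 clusters: its 30 tested regions summed to 106 ± 46.8 against 26.8 ± 12.2 CPM unstimulated, a ratio of 3.94, and to 284 ± 71.0 against 40.1 ± 6.99 CPM stimulated, a ratio of 7.08. A cluster of 4 members beside it at Speer4d had the largest stimulated ratio, 7.72. The next in size, at chr4:145673755-145754002 around Gm13247 and Gm13251, held 14 members of 26 tested regions, with summed ratios of 1.84 and 2.17, and 3 more clusters followed further along chromosome 4 around Gm13145, Gm13151 and Gm13152.

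**Figure D4:**
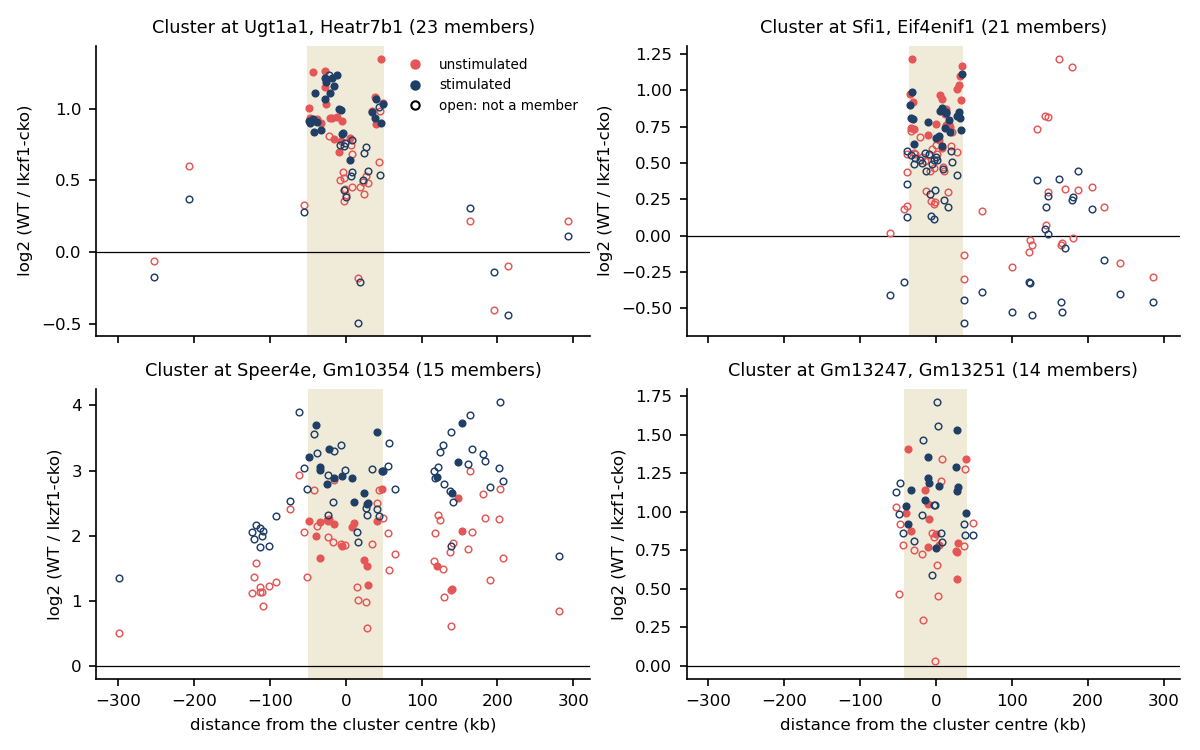
Log2 ratio of WT to Ikzf1-cko of each tested region, unstimulated and stimulated, against its distance from the centre of the 4 largest clusters (filled, members; open, other tested regions; shading, the span of the members; y axes differ). In the clusters at Ugt1a1 and Sfi1 the ratio is raised over most of the shaded span. Their flank medians are 0.14 and 0.06 unstimulated and −0.08 and −0.25 stimulated. Single regions outside the Sfi1 span are still raised, up to 1.21 unstimulated at 163 kb from the centre. To the left of that centre the regions shown end at 60.6 kb. Around Speer4e (1.49) and Gm13247 (0.79) the unstimulated flank median is raised too.

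Clusters differed in how far their sequence is repeated in the genome, measured as the median number of times a region's 24-base words occur in mm9. All 15 members of the Speer4e cluster had repeated words, as did 4 of the 14 at Gm13247, and none did at Ugt1a1 or Sfi1. Over all members 79 (6.96%) had a median above 1, against 2.72% of tested regions and 1.62% of the other regions of at least 8 CPM, and outside the clusters 48 of 1002 (4.79%) did. Reads from repeated sequence cannot be assigned to 1 place, so the values of those regions are uncertain. The word count sees only copies in the assembled genome: whether Sfi1, the chromosome 17 pair or other very strong members have copies outside it was not tested, and their CPM may sum over such copies. The measure and the clusters were chosen after the values were seen.

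The 14 motif words examined were counted in members and in other tested regions. Each word was searched on both strands of the central 300 bases, and matches of 2 words may share bases, as those of GGGAA and AGGAAG can. The Ikaros core GGGAA was in 56.0% of the 1135 (95% Wilson interval 53.1% to 58.9%) and in 59.4% of the 68822 others. AP-1 (TGANTCA) was in 9.52% against 13.9%, the CTCF core (searched by its consensus) in 1.32% against 4.32%, SP/KLF (GGGCGG) in 16.8% against 21.5% and ETS (AGGAAG) in 38.4% against 41.0%. RUNX (TGTGGT) was in 27.9% against 24.97%, TCF/LEF (CTTTGA) in 20.6% against 18.6%, and the E-box words CACCTG in 30.0% against 25.3% and CAGCTG in 20.4% against 18.97%. The forkhead word GTAAACA was in 4.14% against 3.77%, and the STAT word (TTCNNNGAA) in 8.55% against 8.31%. The GATA word AGATAA was in 10.6% against 12.1%, and the IRF word (GAAANNGAA) in 7.31% against 8.88%. The T-box word TCACACC was in 5.99% against 5.07%. Regions more than 1 kb from a start site gave the same order for AP-1 (10.6% of 933 against 16.3% of 53125) and for CTCF (1.61% against 5.29%). All members reach 8 CPM, and among the 31438 other regions that do, GGGAA was in 59.98%, AP-1 in 13.3%, CTCF in 2.52%, SP/KLF in 33.8%, ETS in 40.04%, RUNX in 22.5%, TCF/LEF in 17.04%, CACCTG in 22.9%, GATA in 10.7% and IRF in 8.89%. Start sites made up 39.9% of those regions and 17.8% of members, so position also differs. More than 1 kb from a start site, RUNX was in 31.1% of members and 29.7% of such regions. In the same order TCF/LEF was in 23.4% and 22.1%, CACCTG in 30.5% and 24.04% and AP-1 in 10.6% and 19.05%. SP/KLF was in 9.65% and 14.5%, ETS in 39.9% and 46.2% and GATA in 11.8% and 15.03%. GGGAA was in 54.7% and 59.2%, CTCF in 1.61% and 3.73% and IRF in 8.36% and 11.1%. These shares are descriptions and no test was run on them.

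The rule set no condition on stimulation, but a region could pass 8 CPM through 1 state alone, which ties its response to its entry. Of the members, 479 reached 8 CPM only in stimulated WT, 147 only in unstimulated WT and 509 in both. The counts over all members are therefore given as description, and the 509 are described after them. In WT 315 members passed the call as higher after stimulation and 32 as lower (27.8% and 2.82%), where 17.7% and 2.32% of all tested regions did. In Ikzf1-cko 140 were higher and 12 lower (12.3% and 1.06%), where 3.02% and 0.632% of all tested regions did. Of the 315 higher in WT, 273 had reached 8 CPM only in stimulated WT, and of the 32 lower, 20 only in unstimulated WT. Among the 509 that reached it in both, 42 were higher and 12 lower in WT and 44 higher and 3 lower in Ikzf1-cko, with median log2 ratios of −0.0028 and −0.05. Among the 22267 other tested regions that reached it in both WT groups, 59 were higher and 722 lower in WT and 16 higher and 95 lower in Ikzf1-cko, with medians of −0.20 and −0.03. Over all members the median log2 ratio of stimulated to unstimulated was 0.36 in WT and 0.22 in Ikzf1-cko, against 0.04 and 0.06 over all tested regions. By FDR alone 743 members passed in WT and 499 in Ikzf1-cko, against 47.6% and 23.5% of tested regions. The stimulated WT libraries all lay above the unstimulated ones in 550 members (background 29.8%) and below them in 236 (24.3%), and in Ikzf1-cko this held for 380 (20.4%) and 174 (17.3%). The call was met in both genotypes by 105 members that were higher and 9 that were lower, against 2.2% and 0.289% of tested regions. The size of the ratio moved with the level: in the 2 groups of mean CPM that held most members, all tested regions had WT medians of −0.0014 and −0.19. Calls were denser in the clusters, where 67 of 133 members were higher in WT and 42 in Ikzf1-cko and none was lower in either. Outside them 248 of 1002 were higher and 32 lower in WT, and 98 and 12 in Ikzf1-cko. Intergenic members had a median log2 ratio of 0.72 in WT, start site members 0.67 and intronic members 0.02. Members that reached 8 CPM only in stimulated WT had a median of 1.06, and those only in unstimulated WT −0.52. The values by cluster and by position were not split by entry, so the 2 cannot be told apart in them.

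**Figure D5:**
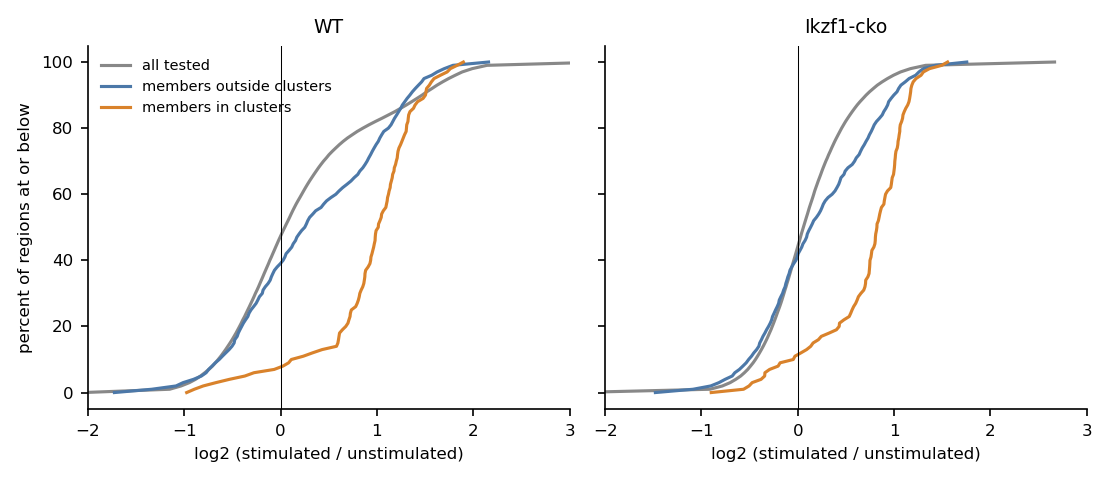
Percent of regions at or below each log2 ratio of stimulated to unstimulated accessibility in WT and Ikzf1-cko, for all 69957 tested regions, the 1002 members outside clusters and the 133 in clusters; axes are cut at −2 and 3. The clusters lie to the right in both genotypes, with medians of 1.01 and 0.82, and the members outside clusters have medians of 0.25 and 0.13. Members are not split by the state in which they reached 8 CPM, which ties these medians to entry.

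Among called members the 3 largest falls on stimulation in WT were a region in an intron of Rras2, a Ras family GTPase (OCR_103431), the region upstream of Tle4 (OCR_58177) and one in an intron of Itpr2, an inositol trisphosphate receptor (OCR_98249). OCR_103431 measured 32.7, 27.2 and 29.3 CPM in unstimulated WT and 9.59, 9.32 and 7.69 in stimulated WT, with 10.2, 7.99 and 8.98 in unstimulated and 4.66, 3.56 and 4.19 in stimulated Ikzf1-cko. It fell by 1.73 ± 0.14 on the log2 scale in WT (SE; adjusted p = 1.4e-10, edgeR quasi-likelihood test), and its unstimulated Ikzf1-cko libraries overlapped the stimulated WT ones. The Tle4 region fell by 1.505 ± 0.14 in WT (adjusted p = 1.2e-09) and by 1.38 ± 0.14 in Ikzf1-cko (adjusted p = 1.1e-08), and the Itpr2 region fell by 1.502 ± 0.13 in WT (adjusted p = 2.7e-10). In Ikzf1-cko the largest falls were at OCR_35602 (by 1.48 ± 0.22) and OCR_87424, 19.3 kb from G3bp2 (by 1.47 ± 0.22), followed by the Tle4 region. The first 2 of these reached 8 CPM only in unstimulated WT, so no p-value is given for them.

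The largest rises in WT were in an intron of Dpp6 (OCR_85013, 2.16 ± 0.32), near Pirt (OCR_18567, 2.11 ± 0.31) and near Mup5 (OCR_79120, 2.04 ± 0.30). Dpp6 encodes a partner of neuronal potassium channels, Pirt a regulator of sensory channels and Mup5 a member of the major urinary protein family. OCR_85013 had only 14 to 16 reads in the unstimulated WT libraries and 40 to 64 in the stimulated ones. In Ikzf1-cko the largest rises were at the Pirt region (1.76 ± 0.32), near Arhgap33 (OCR_99661, 1.71 ± 0.23) and in an intron of Il1rapl1 (OCR_117577, 1.66 ± 0.22), whose 24-base words are repeated. These 5 regions reached 8 CPM only in stimulated WT, so their rises are descriptions, with no p-value. Of the 24 members nearest to listed genes, 20 had a log2 ratio below 0 in WT, with a median of −0.48 against −0.23 for all 2068 tested regions nearest to those genes. Of the 24, 7 reached 8 CPM only in unstimulated WT and 3 only in stimulated WT, so the median partly follows from the rule. Of these 24, 3 passed the call as lower in WT (Tle4 and both Ifngr2 regions) and 2 as higher (Axin2 and Nr4a1). Over all tested regions 2.32% passed it as lower and 17.7% as higher. Both Ifngr2 regions reached 8 CPM only in unstimulated WT and the Nr4a1 region only in stimulated WT. The directions of these regions therefore follow from the rule.

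Whether the genotype difference itself changed with stimulation was fitted as an interaction over all 69957 regions. The rule used both ratios that this term compares, so the members' terms are a description. Only 4 members passed (0.352%), against 1.98% of tested regions, and 12 passed by FDR alone, against 7.48%. The gap narrowed at the Ifngr2 region OCR_47744, from a ratio of 3.196 to 1.57, and widened at the Arhgap28 start site (OCR_51842), from 1.57 to 3.38, at OCR_93697, from 1.67 to 4.29, and at OCR_100087, from 1.53 to 3.04. Since the rule demanded a ratio of 1.5 in both states, regions with a gap in 1 state alone could not enter, and the count is bounded by the choice.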

How the data were processed

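The 12 ATAC-seq libraries came from YFP+ Treg of spleen. The authors aligned reads with Bowtie2, removed duplicates, called peaks per replicate with MACS2, kept those present in 2 or more replicates and joined them to a common set of regions. The labels and the submitters' processing notes name mm9. The methods print a human build, and the members' coordinates lie within the mm9 chromosomes. The deposited counts are whole numbers of reads per region and library, and the authors divided them by length and library size to give the deposited FPKM values, which were not tested here. A deposited table of the authors' own fold changes, p-values and FDR was not used. No per-sample column was left unmapped.

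CPM was computed on the sum of a library's counts. Tests were edgeR (4.0.16, R 4.3.3) quasi-likelihood fits over all 4 groups, on library totals without further scaling, for the 69957 regions with at least 3.6 CPM in 3 libraries. All 1135 members passed this filter. P-values were adjusted by Benjamini-Hochberg over all tested regions. A call needed FDR below 0.05 with a log2 change beyond 1 in either direction. The fit was tested on simulated data for stimulation in WT: of 200 changes of 2 (log2) placed among 69957 regions it recovered 188, with 16 false calls. Replicates differed by more than sampling noise. Counted reads were 4808916 to 15355521 per library, and intervals and floors cover counting error only.

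Regions were placed against GENCODE genes of mm9, with a start site taken as 1 kb either side. The reference and the 24-base word counts came from the mm9 genome. A total of 200 regions on other chromosomes were not annotated, none of them members. Regions were named by set rules: largest falls, highest levels, strongest start sites, members nearest to listed genes, largest responses to stimulation, threshold neighbours, genes with most members and extreme interactions. Those beyond these rules (Ets1 and the further Runx1, Smad7 and Tgfbr3 regions, the additional start sites and the neighbourhood of Ikzf1) were chosen after their values were seen. The members, gene lists and motif words were chosen with earlier results of these data known. Alternatives were TMM, DESeq2 (1.42.0), other thresholds, a replicate block and leaving out each library. The restriction to regions outside clusters or without repeated words in mm9 was added after seeing the data.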

Additional observations from a re-analysis of the deposited data

Results flagged for a closer look

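The interaction term, the difference of the genotype effect between the states, passed the call at 4 members (edgeR quasi-likelihood test over 69957 regions). The rule used both ratios that the term compares, and of these regions OCR_47744 reached 8 CPM only in unstimulated WT and the other 3 only in stimulated WT, so the terms are descriptions and no p-value is given. At OCR_47744, 8.04 kb upstream of Ifngr2, the term was 1.02 ± 0.28 (SE). WT libraries went from 10.5 to 12.1 CPM down to 3.54 to 5.12 CPM, and Ikzf1-cko libraries from 3.16 to 3.65 CPM down to 2.70 to 2.75 CPM.

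At OCR_51842, over the Arhgap28 start site, the term was −1.13 ± 0.30. WT libraries went from 5.58, 6.49 and 8.47 CPM up to 10.4, 15.4 and 15.6 CPM, while Ikzf1-cko libraries lay at 3.65 to 5.56 and then at 3.49 to 5.21 CPM.

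At OCR_93697, 180 kb from 4930544G11Rik, the term was −1.35 ± 0.38, with WT libraries at 3.14 to 3.85 and then 7.31 to 10.6 CPM and Ikzf1-cko libraries at 1.60 to 2.91 and then 1.63 to 2.49 CPM. At OCR_100087, 391 kb from Gm2058, it was −1.02 ± 0.33, with WT libraries at 3.02 to 4.11 and then 9.32 to 13.1 CPM and Ikzf1-cko libraries at 1.744 to 2.8003 and then 2.85 to 4.66 CPM. None of the 4 was called under DESeq2. The largest count in these regions was 104 reads, and OCR_93697 had only 16 to 51 reads per library.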

How the results depend on the processing

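The rule gave 752 members with DESeq2 size factors, 233 at a ratio of 2, 5896 at 4 CPM, 248 at 16 CPM and 2040 with overlap allowed, against 1135. TMM gave 764, of which 758 were shared. Leaving out 1 library gave 1077 to 2626 members (1864 without WT unstimulated replicate 3 and 2626 without Ikzf1-cko unstimulated replicate 3). With 3.6 CPM required in all 12 libraries, which leaves only 513 members in the test, stimulation calls were 60 in WT and 47 in Ikzf1-cko, genotype calls 117 unstimulated and 135 stimulated, and interaction calls 0. FDR alone gave 743, 499, 1097, 1135 and 12 in that order. TMM gave 254 unstimulated genotype calls and 6 interaction calls, and DESeq2 gave 0 interaction calls. Leaving out 1 library gave 244 to 403 stimulation calls in WT, 90 to 237 in Ikzf1-cko (90 without Ikzf1-cko stimulated replicate 1, 237 without Ikzf1-cko unstimulated replicate 3), 320 to 560 and 490 to 632 genotype calls, and 0 to 27 interaction calls (0 without WT unstimulated replicate 3, WT stimulated replicate 1 or Ikzf1-cko stimulated replicate 3, 19 without Ikzf1-cko stimulated replicate 1 and 27 without Ikzf1-cko unstimulated replicate 1). The cause was not tested. No direction reversed. The deviations of same-numbered libraries of different groups had correlations of −0.36 to 0.28, with both signs. With 3 libraries in a group these cannot decide whether the numbers pair the libraries. The main fit used no pairing, although the sorted cells were divided between the states. With a replicate block, calls were 336 and 156 for stimulation, 413 and 553 for genotype and 3 for the interaction. Outside clusters they were 280, 110, 339, 481 and 4. Among all tested regions 12.7% of unstimulated genotype calls were higher in Ikzf1-cko, against 27.5% with TMM and 25.5% with DESeq2, and the share of positive interaction calls was 29.2%, 18.4% and 40.4%. Depth limits members of few reads, such as OCR_85013 with 14 to 16 reads in each unstimulated WT library.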

Other observations

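Clusters of members also lay at genes where no member had repeated words in mm9. Copies outside the assembly would not be counted. At Lass6, a ceramide synthase, 4 of 5 tested regions were members, and the 5 summed to 85.6 ± 1.44 CPM (SD, n = 3) in unstimulated WT, 37.8 ± 2.27 in unstimulated Ikzf1-cko, 49.6 ± 2.14 in stimulated WT and 25.3 ± 2.94 in stimulated Ikzf1-cko. At Bend4 all 5 tested regions were members, with sums of 75.5 ± 7.60, 40.2 ± 3.64, 63.4 ± 1.92 and 34.9 ± 3.61 CPM in the same order. These 2 clusters had lower sums after stimulation in both genotypes, unlike those at Ugt1a1 and Sfi1. Around Gm7120 on chromosome 13 (chr13:120278495-120284272) 6 of 7 tested regions were members, and the 7 summed to 81.1 ± 23.0 against 37.9 ± 1.74 CPM unstimulated and 168 ± 19.2 against 69.4 ± 9.18 CPM stimulated, with no member among 13 tested regions of the flanks.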
